A study of Mus musculus with 4 samples.

Results

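The 8 genes described here encode the contractile machinery of peritubular myoid cells, and were chosen by name as Acta2, Actg2, Myh11, Myl9, Mylk, Cnn1, Tagln and Des. Each of the 8 had 1 probe set paired with its symbol alone, of 23099 named probe sets on the array, so that all 8 of the 18820 genes with a value of their own could be followed. They were measured in whole testes of adult Azin2 KO mice, 3–4 months old and in a C57BL/6 mixed background, which carry a β-Geo cassette within the Azin2 locus, and of Azin2 WT mice. Affymetrix Mouse Gene 1.1 ST arrays were used for 2 KO and 2 WT samples, each of them total RNA pooled from 3 mice. The comparison concerns testis transcripts when Azin2, which encodes an antizyme inhibitor of polyamine metabolism, is disrupted.

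Peritubular myoid cells are flat, smooth muscle-like cells that surround the seminiferous tubules. Their contractions move spermatozoa and tubular fluid towards the rete testis, and together with Sertoli cells they lay down the basement membrane of the tubule. In smooth muscle, calcium bound to calmodulin activates myosin light chain kinase (Mylk), which phosphorylates the regulatory light chain (Myl9) so that the myosin heavy chain (Myh11) can pull on actin filaments (Acta2, Actg2), while calponin (Cnn1), transgelin (Tagln) and desmin (Des) regulate, bundle or anchor the filaments. Many of these genes are driven by serum response factor, which binds a DNA element known as the CArG box.

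Sequences around a start of 5 of the 8 genes, Acta2, Cnn1, Des, Myl9 and Mylk, were found in RefSeq promoter windows. The windows (GRCm38.p6) span 250 bases before to 50 after it, and those of Acta2 and Myl9 are shown because they hold the CArG letters. The Mylk window, chr16:34784700-34784999 on the plus strand, lies inside the gene, so that its letters describe an internal start. The starts used for Acta2, Cnn1 and Myl9 also lie inside the annotated extent of their genes. The matches given below for Acta2 lie inside that extent too, and those for Myl9 before it. The full CArG box was found on both strands in 1.63% of 32851 such windows, and among the 5 genes in Myl9 alone, as CCTAATAAGG from base -161 to -152 relative to the start. With at most 1 departure from those letters, which also takes in the full box, it was found in 21.1% of windows, and among the 5 genes in Acta2 (CCCTATATGG from -84 to -75 and CCTTGTTTGG from -34 to -25) and Myl9 (also CCTTGTAAGG from -99 to -90). The hexamer CATTCC, the core of the MCAT element bound by TEAD factors, occurred on either strand in 14.7% of windows and in those of Acta2 and Mylk. TATAAA occurred in 13.6% of windows and in 0 of the 5. Capitals mark the CArG letters in both windows, chr19:34255324-34255623 on the minus strand for Acta2 and chr2:156775214-156775513 on the plus strand for Myl9, and, in Acta2, the reverse complement of CATTCC. A match is a description of the letters, and binding was not measured here.
Acta2: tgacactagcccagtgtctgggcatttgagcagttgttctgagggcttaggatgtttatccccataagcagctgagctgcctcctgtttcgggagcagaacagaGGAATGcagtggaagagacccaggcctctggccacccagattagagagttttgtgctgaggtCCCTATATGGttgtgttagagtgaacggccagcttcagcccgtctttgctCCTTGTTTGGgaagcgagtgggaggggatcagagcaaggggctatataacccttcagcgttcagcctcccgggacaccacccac
Myl9: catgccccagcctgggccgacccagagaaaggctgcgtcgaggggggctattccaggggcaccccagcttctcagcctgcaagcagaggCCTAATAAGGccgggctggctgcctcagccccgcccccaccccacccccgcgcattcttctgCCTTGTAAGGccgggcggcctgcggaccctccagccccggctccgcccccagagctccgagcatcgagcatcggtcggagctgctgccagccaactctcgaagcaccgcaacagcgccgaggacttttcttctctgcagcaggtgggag

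Azin2 itself, which checks the genotype labels, had log2 signals of 7.36 and 7.14 in KO testes, against 10.16 and 9.998 in WT testes (log2 difference -2.83, adjusted p = 0.0250 from limma). It was the 1 probe set (0.00433% of 23099) past an adjusted p of 0.05. Array medians were 6.08 to 6.11, and any 2 arrays differed with an SD of 0.156 to 0.181 over the table, also when they were of the same genotype (0.170 for KO, 0.166 for WT). All 8 contractile genes lay above the median of every array, taken over all 35556 probe sets, as did 11211 of the 18820 genes. So did 8 of 8 germ cell, 7 of 8 Sertoli cell and 5 of 6 macrophage markers, and the 4 of 6 Leydig cell markers with a value. The count was 2 of 8 for vascular smooth muscle cells and pericytes, 4 of 8 for endothelium and 3 of 6 for fibroblasts. It was 2 of 6 for mesothelium, 1 of 5 for adipocytes, 0 of 8 for skeletal muscle and 1 of 7 for epididymis. Differences are given throughout as KO minus WT on the log2 scale of the authors' RMA signals, which have background removed and are normalized between arrays. Beyond these counts, levels of different probe sets are not compared, as each probe set hybridizes with its own strength.

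None of the 8 contractile genes passed the test between KO and WT testes. At an adjusted p of 0.05 from limma 0 of 8 were called, beside 0.00433% of all named probe sets, and the adjusted p of each of the 8 was 0.9995. The study's thresholds, which ask for a fold of 1.5 and an unadjusted p under 0.05 together, called 0 of 8, beside 0.0823%. The p threshold alone also called 0 of 8, beside 4.10%. The 8 differences ran from -0.078 for Mylk to 0.15 for Cnn1, with 5 above and 3 below 0 and a median of 0.019, beside a median of 0.011 over all 18820 genes, of which 10654 were above 0. The 95% interval of the difference lay within a fold of 1.5 in either direction for 8 of 8 contractile genes (98.0% of all genes) and within a fold of 1.3 for 7 of 8 (91.4% of all genes). In whole testis, a change in the number of myoid cells and one in RNA per cell could not be told apart. Neither can myoid cells, the smooth muscle of testicular vessels and, for Actg2, spermatids as sources of these transcripts.

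**Figure D1:**
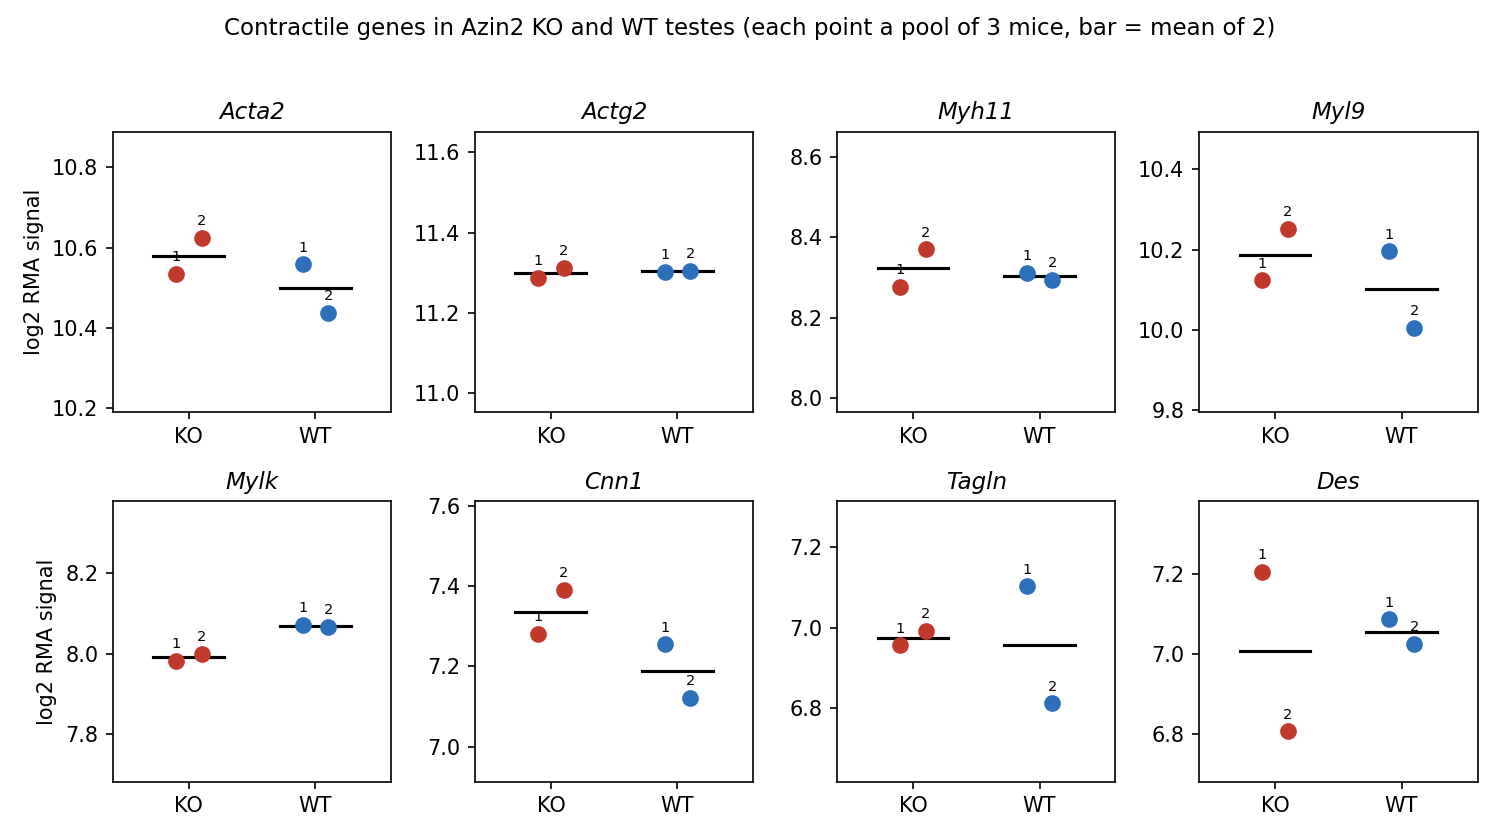
Log2 RMA signal (vertical axis) of the 8 contractile genes in KO (red, left) and WT (blue, right) testes. Each point is a pool of 3 mice labelled with its replicate number, bars are means of 2 pools, and every panel spans 0.7 log2 units; KO and WT points overlap in range in 6 of the 8 panels, the exceptions being Cnn1 and Mylk.

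The actins formed the first group. Acta2 (probe set 10467124), the smooth muscle alpha-actin by which peritubular myoid cells are usually recognized, was at 10.54 and 10.62 in KO testes, against 10.56 and 10.44 in WT testes. The KO pools were not both above the WT pools, and the lowest of the 4 values was that of WT replicate 2. The difference was 0.082 (95% interval -0.092 to 0.26), a fold of 1.06. Actg2 (probe set 10545707), the smooth muscle gamma-actin of gut and bladder, is in mice also transcribed by spermatids. It was at 11.29 and 11.31 in KO testes, against 11.30 and 11.30 in WT testes. The WT pools lay between the KO pools, and the difference was -0.0034 (95% interval -0.13 to 0.12). Its SD within groups, 0.013, was among the 8 genes lower only in Mylk (0.0091).

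The myosin motor and its kinase came next. Myh11 (probe set 10437885), the smooth muscle myosin heavy chain, was at 8.28 and 8.37 in KO testes, against 8.31 and 8.29 in WT testes. Both WT values fell between the KO values, and the difference was 0.020 (95% interval -0.12 to 0.16). Myl9 (probe set 10477920), the regulatory light chain, was at 10.12 and 10.25 in KO testes, against 10.20 and 10.005 in WT testes. The difference of 0.087 (95% interval -0.14 to 0.31) was smaller than the gap between the 2 pools of either genotype, 0.13 in KO and 0.19 in WT. Mylk (probe set 10435345), the kinase that phosphorylates this light chain, was at 7.98 and 8.0 in KO testes, against 8.07 and 8.07 in WT testes. The KO values were the lower pair, and the gap between pools was 0.018 in KO and 0.0046 in WT testes. The difference was -0.078 (95% interval -0.20 to 0.045, unadjusted p = 0.163 from limma), a fold of 0.948. By the ordinary equal-variance test, the spread of Mylk alone gave an unadjusted p of 0.0134 and an adjusted p of 0.969.

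The actin-binding proteins and the intermediate filament made up the third group. Cnn1 (probe set 10583809) encodes calponin 1, which binds actin and inhibits the ATPase of myosin. It was at 7.28 and 7.39 in KO testes, against 7.25 and 7.12 in WT testes. The KO values were the higher pair, although KO replicate 1 exceeded WT replicate 1 by less than the gap between the KO pools, 0.11. The difference of 0.15 was the highest of the 8 (95% interval -0.038 to 0.33, unadjusted p = 0.0969 from limma), a fold of 1.11. Tagln (probe set 10593123), the actin-bundling protein transgelin or SM22 alpha, was at 6.96 and 6.99 in KO testes, against 7.10 and 6.81 in WT testes. The KO values lay between the WT values, and the difference was 0.017 (95% interval -0.25 to 0.29). Des (probe set 10347583), the muscle intermediate filament protein desmin, was at 7.21 and 6.81 in KO testes, against 7.09 and 7.03 in WT testes. The WT values lay between the KO values. The difference was -0.050 with the widest interval of the 8 (-0.40 to 0.30), and without KO replicate 1 it was -0.25 (unadjusted p = 0.0222, adjusted p = 0.995 from limma), against 0.15 without KO replicate 2.

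**Figure D2:**
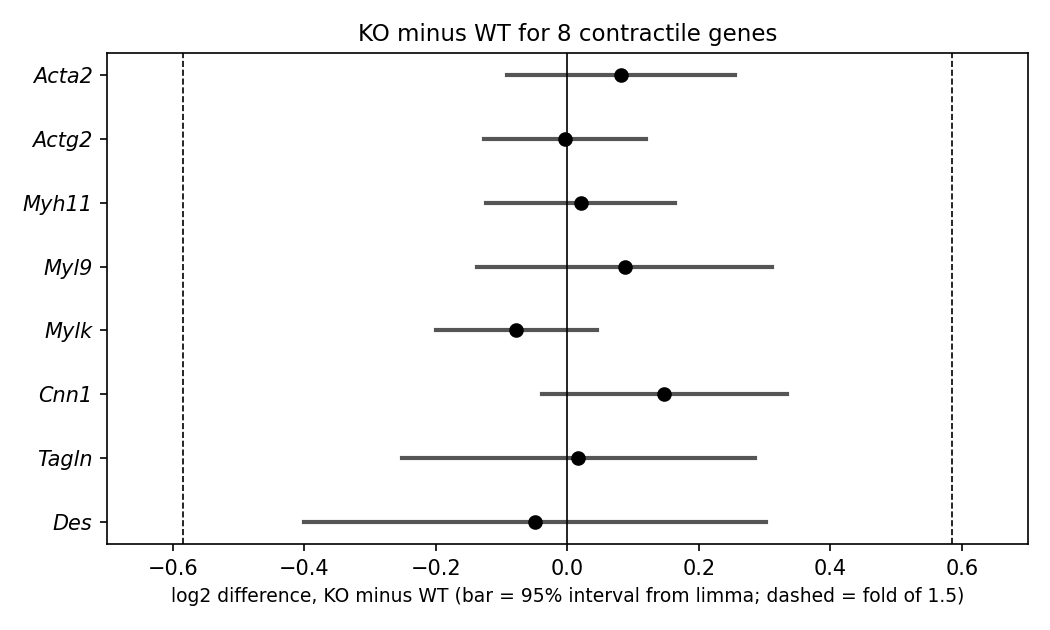
Log2 difference, KO minus WT (horizontal axis), of the 8 contractile genes. Points are differences of means of 2 pools each, bars are 95% intervals from limma and dashed lines mark a fold of 1.5; all 8 intervals include 0 and end inside the dashed lines, from -0.40 at the low end of Des to 0.33 at the high end of Cnn1.

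The KO and WT pools did not overlap in 2 of 8 genes, Cnn1 with KO above WT and Mylk with KO below WT, beside 32.5% of all named probe sets (20.1% with KO above WT and 12.3% with KO below WT). In the same 2 genes the difference between genotypes exceeded the gap between the pools of both genotypes, which held for 21.0% of all genes. The spread within groups was above the median of all genes, 0.058, in 5 of 8, and ran from 0.0091 in Mylk to 0.20 in Des, whose spread was higher than that of 96.4% of genes.

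The arrays, set against each gene's mean over all 4, did not rank alike in the 8 genes. Acta2, Cnn1 and Myl9 had their highest value in KO replicate 2 and their lowest in WT replicate 2, an arrangement found in 11.6% of all genes. In KO replicate 2 these 3 genes were 0.085, 0.13 and 0.11 above their means. In WT replicate 2 they were 0.10, 0.14 and 0.14 below them. Tagln also had its lowest value in WT replicate 2, but its highest in WT replicate 1. Des ran the other way, with its highest value in KO replicate 1 (0.17 above its mean) and its lowest in KO replicate 2 (0.22 below it). Mylk was also below its mean in KO replicate 2 (-0.030), as in KO replicate 1 (-0.048), and above it in WT replicates 1 (0.041) and 2 (0.037). The mean over the 8 genes was 0.0076 (replicate 1) and 0.020 (replicate 2) in KO testes, against 0.037 (replicate 1) and -0.065 (replicate 2) in WT testes. By the mean the 8 genes were highest in WT replicate 1, but by the median in KO replicate 2 (0.042, against 0.031 in WT replicate 1), as they were by the mean without Des, left out after its values were seen (0.055 in KO replicate 2, against 0.035 in WT replicate 1). They were lowest in WT replicate 2 by all of these measures.

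**Figure D3:**
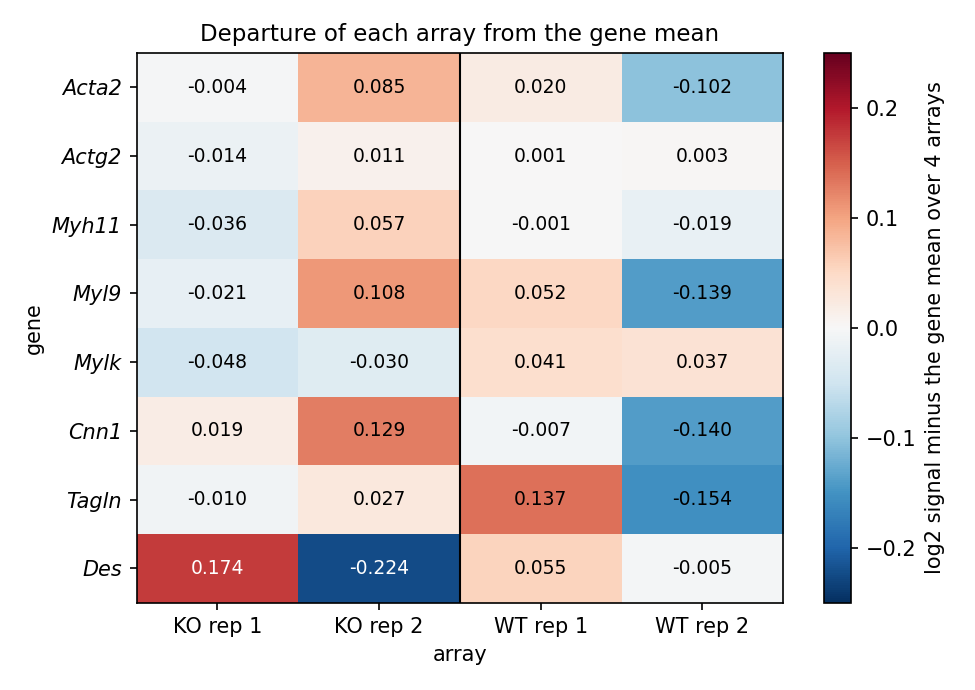
Departure of each array (columns, KO left and WT right of the line) from the mean of each gene over the 4 arrays (rows), in log2 units given in the cells. KO replicate 2 was the highest array for Acta2, Actg2, Myh11, Myl9 and Cnn1, and WT replicate 2 the lowest for Acta2, Myl9, Cnn1 and Tagln. Des and Mylk were below their means in KO replicate 2.

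Markers of the other cells that could carry these transcripts were followed on the same arrays. For vascular smooth muscle cells and pericytes, 8 markers ranged from -0.16 for Abcc9, an ATP-sensitive potassium channel subunit, to 0.12 for Cspg4, the proteoglycan NG2, with 5 of 8 below 0, and 2 of the 8 lay above the median of every array. Their mean departure was -0.041 (replicate 1) and 0.014 (replicate 2) in KO testes, against -0.014 (replicate 1) and 0.042 (replicate 2) in WT testes. This mean was highest in WT replicate 2, where the contractile genes were lowest on average. The 2 markers above the median of every array did not follow it. Pln was at 8.38 and 8.35 in KO testes, against 8.31 and 8.28 in WT testes, and so lowest in WT replicate 2. Mcam was at 8.28 and 8.11 in KO testes, against 8.27 and 8.22 in WT testes. The 8 skeletal muscle markers, genes of striated fibres such as those of the cremaster, which contain desmin too, ranged from -0.061 for the troponin gene Tnnt3 to 0.19 for the creatine kinase gene Ckm, and none of the 8 was above the median of all 4 arrays. Their mean departure was 0.036 (replicate 1) and 0.024 (replicate 2) in KO testes, against -0.0047 (replicate 1) and -0.055 (replicate 2) in WT testes. Sertoli cell markers were above 0 in 8 of 8, from 0.011 for Clu to 0.21 for Amh, and on average were, as Acta2, Cnn1 and Myl9 were, highest in KO replicate 2 (0.12) and lowest in WT replicate 2 (-0.12), with -0.027 in KO replicate 1 and 0.033 in WT replicate 1. Serum response factor and its coactivators were on average also highest in KO replicate 2 (0.034) and lowest in WT replicate 2 (-0.032). So was the mean over all genes (0.0046 and -0.0053). Endothelial markers ranged from -0.13 for Vwf to 0.0040 for Tie1, fibroblast markers from -0.15 for Dcn to 0.13 for Col1a1, mesothelial markers from -0.15 for Upk1b to 0.068 for Msln, Leydig cell markers from -0.14 for Hsd3b1 to -0.025 for Cyp17a1, and germ cell markers from -0.053 for Prm1 to 0.084 for Sycp3. Macrophage markers were below 0 in 6 of 6, from -0.56 for Lyz2 to -0.029 for Cd163, adipocyte markers ranged from -0.31 for Fabp4 to 0.043 for Plin1, and epididymis markers from -0.11 for Rnase10 to 0.50 for Spink8, which was at 5.16 and 6.85 in KO testes and at 5.58 and 5.42 in WT testes. No marker passed an adjusted p of 0.05 from limma, and at an unadjusted p under 0.05 Ckm and Myh2 were higher and Fabp4 and Lyz2 lower in KO testes. Their part in the values of the contractile genes was not tested.

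The remaining smooth muscle genes were counted in lists. Of 15 other genes of the filaments and dense bodies, 0 passed the test, 8 were above 0 and 7 below, and the median was 0.014. They ran from -0.086 for Tln1, the integrin-linked adaptor talin 1, to 0.15 for Tpm1, the tropomyosin that winds along actin. Tpm1 was at 8.06 and 7.96 in KO testes, against 7.83 and 7.89 in WT testes, with both KO pools above both WT pools and an unadjusted p of 0.0513 (adjusted p = 0.9995 from limma). Of 12 genes of light chain phosphorylation and calcium entry, 9 had a value and 0 passed the test, with a median of 0.015. The lowest was Ppp1r14a (-0.085), the CPI-17 inhibitor of myosin phosphatase, whose KO pools, at 6.996 and 7.69, lay on either side of the WT pools, at 7.54 and 7.32. The highest was Kcnmb1 (0.18), the beta subunit of the calcium-activated potassium channel of smooth muscle. It was at 5.17 and 5.22 in KO testes, against 4.96 and 5.08 in WT testes, values dimmer than each array's median (unadjusted p = 0.0370, adjusted p = 0.9995 from limma).

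Among the regulators, serum response factor (Srf) had a difference of -0.018, its coactivators myocardin (Myocd) 0.050, Mrtfa 0.10 and Mrtfb -0.015, and 0 of these 4 passed the test. Myocd, the coactivator most restricted to smooth muscle, was at 5.21 and 5.14 in KO testes, against 5.10 and 5.15 in WT testes, also dimmer than each array's median. Of 7 receptors, 5 had a value and 0 passed. They ran from -0.21 for Ednrb, a receptor of endothelins, which contract smooth muscle, to 0.066 for Pdgfra, a receptor of platelet-derived growth factor. Ednrb was at 4.85 and 4.98 in KO testes, against 5.04 and 5.20 in WT testes, a pattern of both KO pools below both WT pools at a dim signal (unadjusted p = 0.0511, adjusted p = 0.9995 from limma). The oxytocin receptor gene Oxtr was at 7.47 and 7.97 in KO testes, against 7.83 and 7.69 in WT testes, so that the gap between the KO pools exceeded the difference of -0.039. Of 12 basement membrane and matrix genes, 11 had a value and 0 passed, from -0.22 for the laminin gene Lamc1 to 0.13 for the collagen gene Col1a1, with a median of -0.021.

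**Figure D4:**
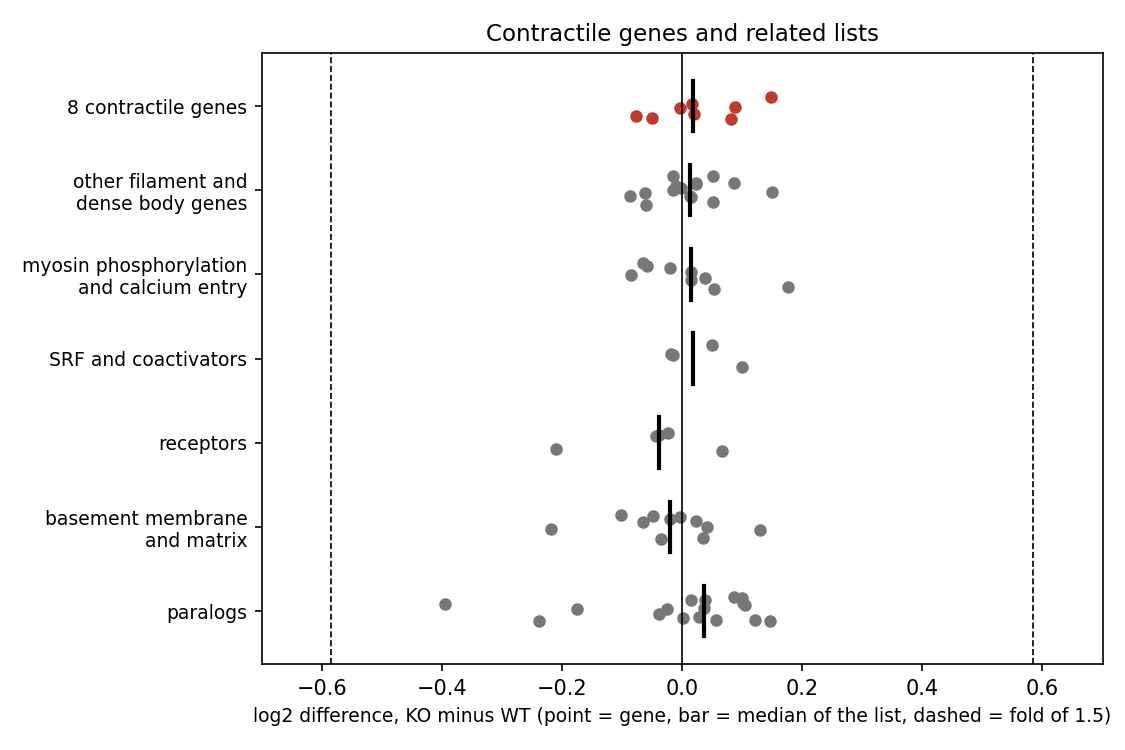
Log2 difference, KO minus WT (horizontal axis), of the contractile genes (red) and of 6 lists of related genes (grey). Points are genes, a black bar is the median of its list and the dashed lines stand at a fold of 1.5; no point lies past these lines, and the lowest is the paralog Tagln2 at -0.40.

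The closest relatives of the contractile genes are mostly the non-muscle forms, made by many cells of the testis. Of 17 paralogs 0 passed an adjusted p of 0.05 or the study's thresholds, 12 were above 0 and the median was 0.036. At an unadjusted p under 0.05, 3 of them were lower and 1 higher in KO testes, and 743 of 18820 genes (3.95%) passed in either direction. Tagln2, the transgelin of non-muscle cells, was at 6.70 and 6.91 in KO testes, against 7.23 and 7.17 in WT testes, a difference of -0.40 (unadjusted p = 0.00526, adjusted p = 0.9995 from limma), whereas that of Tagln was 0.017. Cnn3, the acidic calponin, was at 8.45 and 8.44 in KO testes, against 8.70 and 8.67 in WT testes, a difference of -0.24 (unadjusted p = 0.00425, adjusted p = 0.9995 from limma), whereas that of Cnn1 was 0.15 and that of Cnn2 was 0.12. Myh9, a non-muscle myosin heavy chain, was at 7.66 and 7.73 in KO testes, against 7.82 and 7.92 in WT testes, a difference of -0.18 (unadjusted p = 0.0345, adjusted p = 0.9995 from limma), and that of Myh10 was -0.039. Whether the differences of Tagln2, Cnn3 and Myh9 depart from those of the smooth muscle genes was not tested. The macrophage markers given above were also below 0, and a part of macrophages in these values was not tested either. The fourth was Mylk3, the cardiac light chain kinase gene, with a difference of 0.15 at signals below the median of every array. Actb and Actg1, the cytoplasmic actins, had differences of 0.015 and 0.0019, Acta1 and Actc1, the sarcomeric actins, of 0.11 and 0.029, Vim, the vimentin gene, of -0.025, and the light chain genes Myl12a and Myl12b of 0.10 and 0.057. The actin paralogs are close in sequence to Acta2 and Actg2, and whether their probe sets share signal was not tested.

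The genes most like the mean of the 8 over the 4 arrays, among 13080 genes that varied at least as much, were Maf1, Ostc, Prpf3, Msx2 and Sall4 (Pearson's r of at least 0.9998 over 4 arrays, given as a description). In all 508 of the 13080 genes had an r above 0.95 by this measure, which 4 arrays do not separate further.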

How the data were processed

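Values were the deposited log2 signals of 4 arrays, which the authors made with RMA (background correction, normalization between arrays and a summary per probe set). The submitters' processing notes name RMA and Partek 6.13.1224, and the paper names the GeneAtlas control software and Transcriptome Analysis Control. The labels name a 3' IVT labelling kit, while the methods describe amplified and fragmented cDNA. The genome build and annotation version are not given in the sources used here. Of 35556 probe sets, 21218 had 1 symbol in the platform annotation, 1881 had several and 12457 are unnamed here. By gene identifier 21185 symbols were matched to RefSeq, whose symbol was used, and a gene took its probe set with the highest mean. KO and WT were compared with limma 3.58.1 in R 4.3.3 (lmFit and eBayes, no filter, 23099 named probe sets, Benjamini-Hochberg adjustment), tested on simulated data. The 2 pools of a genotype were taken as replicates, so that p-values rest on the spread between pools, which may be technical in part. For each probe set limma combines its own spread with that over all probe sets. Intervals are at 95%. The folds of 1.5 and 1.3 against which intervals were counted were set after values were seen, 1.3 in place of a narrower limit that fewer of the 8 genes met. The number of arrays limits precision.

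The members and lists were chosen with earlier results of these data known. Named were the 8 genes, Azin2, the lowest and highest gene of each list, any list gene past the study's thresholds, the closest paralogs, and the 5 genes most like the mean of the 8. Genes named beyond this rule (Myocd, Mrtfb, Oxtr, Myh2, Pln and Mcam) were chosen after their values were seen. As alternatives, eBayes was run with an intensity trend, robustly or not, the equal-variance test (the methods' t-test, named there for the study in general and not for the arrays) replaced it, arrays were quantile normalized or centred, dim probe sets were removed, unnamed ones were added, the replicate number was a block, single arrays were dropped, and other folds or the mean of a gene's probe sets were used. Plots used matplotlib 3.10.9 (Python 3.11.15). Promoter windows came from RefSeq.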

Additional observations from a re-analysis of the deposited data

How the results depend on the processing

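Under every alternative run, 0 of the 8 contractile genes passed an adjusted p of 0.05 or the fold of 1.5, with adjusted p-values from limma or the ordinary test of at least 0.920, and at an unadjusted p under 0.05 the count was 1 by the ordinary equal-variance test (Mylk) and without KO replicate 1 (Des), and 0 otherwise. The median difference of the 8, 0.019, ranged from -0.0053 without WT replicate 2 to 0.086 without WT replicate 1, with 0.051 without KO replicate 1 and 0.011 without KO replicate 2, and lay between 0.019 and 0.033 with no array dropped. The differences of single genes could move under 6 of the 13 settings (quantile normalization, centring and the 4 dropped arrays), which gave 48 values, of which 41 kept their sign and 7 did not. Actg2 changed from -0.0034 to 0.0060 with each array centred on its median, and ranged from -0.016 to 0.0092 with single arrays dropped. In the same way Myh11 ranged from -0.026 to 0.067, Tagln from -0.13 to 0.16, Des from -0.25 to 0.15 and Myl9 from -0.0082 to 0.18, while Acta2 (0.021 to 0.14), Cnn1 (0.081 to 0.21) and Mylk (-0.086 to -0.069) kept their sign. The 95% interval lay within a fold of 1.5 for 8 of 8 genes in all settings except the ordinary test, where it did for 6 of 8. This count was added after seeing the data.

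The values showed no pairing of the samples by replicate number (correlation of deviations over probe sets -0.082). With 2 pools for each genotype this cannot exclude a pairing, and the labels do not state one. A replicate block cannot move a difference in this balanced layout, so that the median of 0.019 under it is no check. With this block 0 of the 8 passed. Over all named probe sets, the count past an adjusted p of 0.05 was 1, against 0 by the ordinary test (1154 at an unadjusted p under 0.05), 0 with every probe set of the table (1724), and 0 to 2 with single arrays dropped. The count past the study's thresholds was 19, against 6 by the ordinary test, 127 with every probe set, 29 to 69 with single arrays dropped, 200 with the fold set to 1.2 and 8 with 2. The log2 difference of Azin2, -2.83, had an adjusted p of 0.868 by the ordinary test and 0.0707 with every probe set of the table, and ranged from -2.94 to -2.72 with single arrays dropped, with an adjusted p of 0.294 without WT replicate 1 and 0.232 without WT replicate 2. The cause of these changes was not tested. A genotype that kept 1 pool was assumed to vary like the other. With 2 pools for each genotype, precision is limited by the number of arrays.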
